A study of Mus musculus with 47 samples.

Results

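Potassium channel genes were taken as every gene whose annotated symbol begins with Kcn, each represented by its brightest probe over all arrays. The rule found 101 probes for 72 genes among 19596 features measured on mouse Illumina bead arrays. By role, 28 genes encode voltage-gated pore subunits, 15 auxiliary or regulatory proteins, 13 inward rectifiers and 9 tandem-pore domain channels. Another 7 were grouped as calcium- or sodium-activated channels, among them Kcnu1, whose channel is pH-sensitive.

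Potassium channels let potassium leave the cell and so set the resting potential, shape action potentials and limit firing. Voltage-gated channels open on depolarisation and are tuned by auxiliary subunits, inward rectifiers hold the membrane near rest, tandem-pore channels carry leak current, and calcium- or sodium-activated channels follow a burst of activity. In the striatum, the projection neurons called medium spiny neurons are known for a very negative resting potential held by inward rectifiers of the Kir2 group and for A-type currents of Kv4 channels with their KChIP partners.

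The study measured total RNA of 3 brain regions, striatum, cortex and cerebellum. The tissue came from wild-type mice and R6/2(300Q) transgenics of both sexes, on a CBA x C57BL/6 background. R6/2 mice carry the first part of human huntingtin with a long glutamine repeat, driven by the human huntingtin promoter, and are a widely used model of Huntington's disease, so the transgene adds a human fragment beside the normal mouse genes. From the age of 4 months, and over 67 days, some mice of each genotype drank a solution of 4b, an inhibitor of histone deacetylases, at 1 mg/ml, and the others had a control treatment that the labels do not describe further. This gave 12 groups of region, genotype and treatment with 4 arrays each, except wild-type control cerebellum with 3, 47 arrays in all. Females gave 3 of 4 arrays in each transgenic 4b group, 1 of 3 in wild-type control cerebellum and 2 of 4 in the other groups. The labels number replicates without saying that each came from its own mouse, so a p-value here speaks only for the spread among these samples. They also do not say which regions came from the same mouse, so no block for the mouse was fitted. Results in several regions may therefore share mice and are not separate replications.

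Array medians before normalization lay between 122.2 and 289.3 intensity units, replicates of a group correlated at 0.978 to 0.994 over all features, and the labelled sex matched on 47 of 47 arrays. Levels are given as log2 of background-corrected, quantile-normalized intensity, and a difference of 1 is a doubling. Probes for Y-linked genes on arrays from females, which measure background, reached at most 6.75. Within a region, features whose mean lay above the 40th percentile there were tested, and one was called where the p of limma, adjusted by Benjamini-Hochberg over all features tested, was under 0.05. Of the 72 genes, 53 were tested in striatum, 51 in cortex and 48 in cerebellum, with 45 tested in each of these regions and 55 in at least 1. Another 16 genes were within background in every region: Kcna7, Kcnd3, Kcne1, Kcne3, Kcng3, Kcnh8, Kcnj1, Kcnj5, Kcnj15, Kcnk18, Kcnmb1, Kcnmb2, Kcnn4, Kcns3, Kcnt1 and Kcnv1. Kcna4 was above background in striatum but below the filter. The dissections carried their markers: the summed linear level of 6 medium spiny neuron genes was 58262 to 67065 per array in wild-type control striatum and 2712 to 3308 in wild-type control cortex. For 8 granule and Purkinje neuron genes it was 47501 to 70382 in wild-type control cerebellum and 1598 to 2092 in wild-type control striatum. It was less even in wild-type control cortex (1824 to 4943) and wild-type 4b striatum (1385 to 8299).

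The first comparison asked how the 3 regions of wild-type control mice differ in their potassium channel genes. A feature was tested here where it passed the filter in either region of the pair. Kcna5, Kcnh3, Kcnh5, Kcnip2, Kcnj4, Kcnn3 and Kcnq3 passed in striatum and not in cerebellum, and Kcnk4 and Kcnv2 in cerebellum and not in striatum. The filter itself favours a higher level in the region where such a gene passed, so its direction is no separate result. Most of the tested genes differed. Between striatum and cerebellum 38 of 55 were called, 19 higher and 19 lower in striatum, against 44.2% of all 12578 features (21.5% higher, 22.7% lower). Between striatum and cortex 36 of 54 were called, 11 higher and 25 lower in striatum, against 30.3% of all features (14.7% higher, 15.7% lower). Between cortex and cerebellum 35 of 53 were called, 22 higher and 13 lower in cortex, against 42.6% of all features (21% higher, 21.6% lower). Leaving out any single array gave 30 to 38 called genes in these comparisons.

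Among voltage-gated genes, Kcnh3 gave the widest regional contrast. It encodes a channel of the ether-a-go-go family (Kv12.2) that is known for its forebrain expression. Its level was 11.39, 10.78, 11.11 and 11.20 in the 4 wild-type control striatum arrays, 11.16, 11.22, 11.07 and 11.27 in cortex, and 6.59, 7.11 and 6.57 in cerebellum. Striatum and cortex overlapped and did not differ beyond their spread (difference -0.06), while cerebellum lay far below both, with 2 of its arrays within background. With those 2 arrays raised to the background level, striatum was at least 19-fold higher than cerebellum (adjusted p = 2.7e-25).

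Kcnf1, a silent subunit that modifies Kv2 channels, was also a forebrain gene. Its mean level was 10.42 ± 0.47 (SD, n = 4) in striatum, 11.35 ± 0.36 (SD, n = 4) in cortex and 7.69 ± 0.50 (SD, n = 3) in cerebellum. Kcng4, another silent Kv2 partner, was highest in cerebellum. It reached 11.06, 11.63 and 11.34 in cerebellum, against 7.04, 8.65, 7.82 and 8.005 in striatum and 8.41, 8.57, 8.39 and 8.55 in cortex. All 3 cerebellar arrays were above every forebrain array, and the striatum was lower than the cerebellum (-3.47 ± 0.25, SE, adjusted p = 2.8e-15). Kcnc4, a fast Kv3 channel, was low in striatum alone, at 10.38 ± 0.11 (SD, n = 4) against 12.97 ± 0.10 (SD, n = 4) in cortex and 12.74 ± 0.03 (SD, n = 3) in cerebellum. Kcna5, a Kv1 channel, was above background only in striatum (7.77 ± 0.23, SD, n = 4), with 6.25 ± 0.28 (SD, n = 4) in cortex and 6.27 ± 0.20 (SD, n = 3) in cerebellum. Kcnd2, the Kv4.2 pore of the A-type current, was 1.04 higher in striatum than in cortex (adjusted p = 3.8e-06) and did not pass against cerebellum (-0.23).

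Among auxiliary genes, Kcnip2 encodes KChIP2, a calcium-binding subunit that carries Kv4 channels to the surface. It read 9.68, 9.95, 9.67 and 9.92 in striatum, 8.25, 8.78, 8.13 and 8.42 in cortex, and 6.41, 6.43 and 6.59 in cerebellum, where all arrays were within background. The regions did not overlap, and striatum was at least 8.32-fold higher than cerebellum (adjusted p = 6.9e-21), a lower limit taken against the background level. Kcnip1 and Kcnip4, of the same KChIP family, were lower in striatum than in cerebellum by -1.40 (adjusted p = 2.9e-10) and -1.03 (adjusted p = 0.00039). Kcnab1 encodes Kv beta 1, a cytosolic subunit that speeds the inactivation of Kv1 channels. Its level was 13.89, 14.35, 13.67 and 13.89 in striatum, 11.80, 11.59, 11.58 and 11.63 in cortex and 12.50, 12.71 and 12.92 in cerebellum. Striatum was highest, and the difference from cortex was 2.30 ± 0.14 (SE, adjusted p = 3.3e-17). Its relative Kcnab3, Kv beta 3, had the reverse order, with a difference of -1.96 ± 0.18 (SE, adjusted p = 1e-11) between striatum and cortex. Kcne1l, which encodes the small membrane subunit KCNE5, was low in cortex, at 8.06 ± 0.08 (SD, n = 4) against 9.75 ± 0.17 (SD, n = 4) in striatum and 9.52 ± 0.35 (SD, n = 3) in cerebellum.

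Among inward rectifiers, Kcnj4, which encodes Kir2.3, read 9.46, 9.50, 9.63 and 9.48 in striatum, 9.002, 9.02, 8.77 and 8.76 in cortex, and 6.26, 6.37 and 6.24 in cerebellum, all 3 of which were within background. Kcnj2, which encodes Kir2.1, read 8.80, 8.61, 8.36 and 9.09 in striatum, 7.46, 7.52, 7.43 and 7.31 in cortex and 6.84, 6.83 and 7.05 in cerebellum. Both were highest in striatum with no overlap between regions, and the striatum exceeded the cerebellum at least 6.83-fold for Kcnj4, against the background level (adjusted p = 1.9e-22), and by 1.81 ± 0.16 on the log2 scale for Kcnj2 (SE, adjusted p = 3.1e-12). Kcnj12, which encodes the related Kir2.2, was instead highest in cerebellum, at 10.09, 11.11 and 11.14 against 8.53 to 8.98 in striatum and 8.34 to 8.91 in cortex. The G-protein-gated rectifier genes Kcnj3 and Kcnj9 were lower in striatum than in cortex by -1.50 (adjusted p = 1.4e-09) and -1.58 (adjusted p = 0.00035), and Kcnj6 of the same group did not pass in any regional comparison. Kcnj16, which encodes Kir5.1 and joins the astrocyte channel Kir4.1, was lower in striatum than in cortex by -1.36 (adjusted p = 1.5e-11).

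Among tandem-pore genes, Kcnk2 encodes TREK-1, a leak channel opened by stretch, heat and lipids. Its level was 12.57, 12.66, 12.79 and 13.06 in striatum, 11.48, 11.34, 11.47 and 11.44 in cortex, and 10.09, 9.85 and 9.996 in cerebellum. Each region stood clear of the next, and the difference between striatum and cerebellum was 2.79 ± 0.15 (SE, adjusted p = 1.7e-19). Kcnk12, which encodes the silent subunit THIK-2, ran the other way, at 7.07 to 7.41 in striatum, 8.92 to 9.19 in cortex and 9.74 to 10.32 in cerebellum (striatum against cerebellum -2.82 ± 0.14, SE, adjusted p = 4.9e-20). Kcnk3, the acid-sensitive channel TASK-1, and Kcnk10, the TREK-2 channel, were also lower in striatum than in cerebellum, by -2.62 (adjusted p = 2.9e-14) and -2.46 (adjusted p = 9.8e-15). Kcnk4, the mechanosensitive channel TRAAK, was a cortical gene, with 9.45, 9.50, 9.41 and 9.27 there against 6.78 to 7.24 in striatum and 6.72 to 7.61 in cerebellum. Among calcium- and sodium-activated genes, Kcnma1, the BK channel, and Kcnn1, the SK1 channel, were lower in striatum than in cortex by -0.72 (adjusted p = 7.2e-06) and -0.68 (adjusted p = 0.00016).

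**Figure D1:**
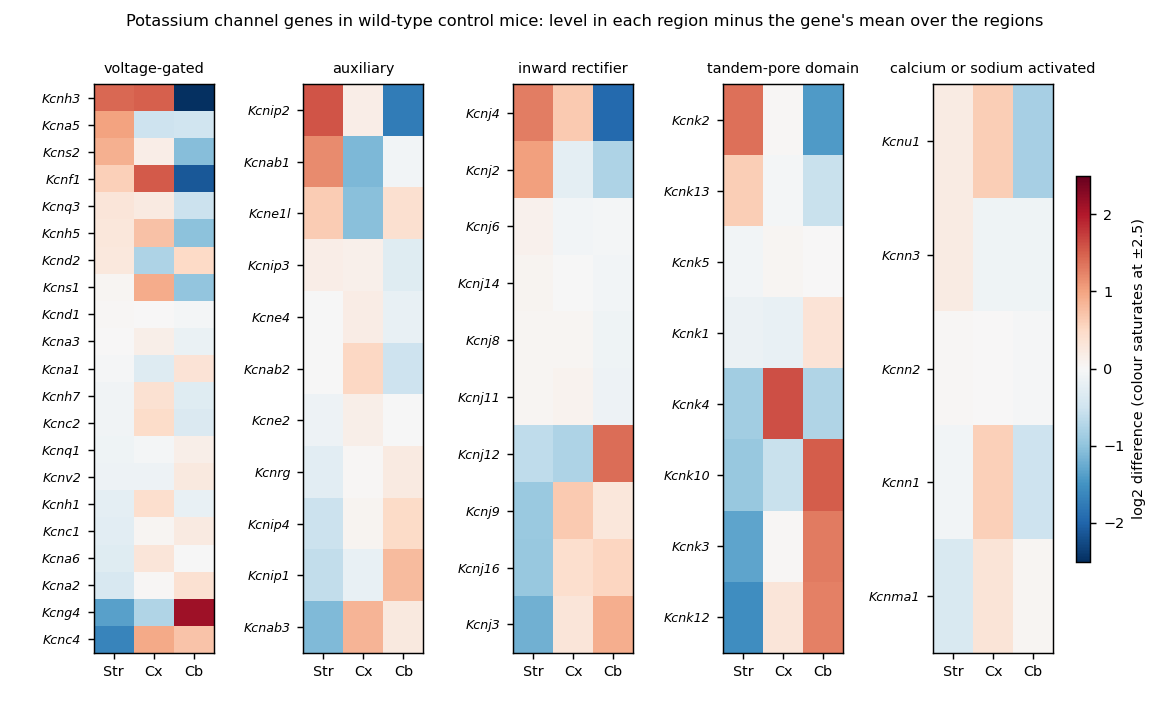
Colour shows the log2 level of each of the 55 tested potassium channel genes in striatum (Str), cortex (Cx) and cerebellum (Cb) of wild-type control mice, minus the gene's own mean over the 3 regions, in panels by role and ordered by the striatal value. Kcnip2, Kcnj4, Kcnk2 and Kcnh3 stand out as high in striatum and low in cerebellum, and Kcng4, Kcnk12 and Kcnk3 as the reverse.

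The next comparison asked which of these genes differ between transgenic and wild-type mice without 4b. In striatum 5 of 53 genes fell and 0 rose, 9.43% of the tested genes against 3.78% of all 12030 features with 1.44% of features higher and 2.34% lower. The median difference over the 53 genes was -0.11, against 0.01 over all features. The 5 genes were Kcnip2, Kcnip3, Kcnj4, Kcnh3 and Kcnj11. In bulk tissue, fewer cells of a type and less RNA per cell cannot be told apart. The medium spiny neuron markers fell with them: 5 of 6 tested markers were lower, none of the 6 was within background, and their summed level was 35396 to 46629 in transgenic against 58262 to 67065 in wild-type arrays. Of 7 tested astrocyte markers 2 were lower, Slc1a2 (-0.75) and Glul (-0.56), and of 6 oligodendrocyte markers 1, Mobp (-0.52). The part of these cells in the channel results was not tested.

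Kcnip2 was called with the smallest p. In wild-type control striatum it read 9.68, 9.95, 9.67 and 9.92, and in transgenic control striatum 9.003, 9.04, 9.26 and 9.07. Every transgenic array was below every wild-type array, and the difference was -0.71 ± 0.12 (SE), or 1.64-fold lower (adjusted p = 0.0024). Kcnip3 encodes KChIP3, also known as DREAM or calsenilin, which is both a Kv4 subunit and a calcium-dependent transcriptional repressor. It read 12.03, 12.04, 12.003 and 11.91 in wild-type and 11.04, 10.77, 11.42 and 11.38 in transgenic arrays. The groups did not overlap, and the difference was -0.84 ± 0.16 (SE), or 1.80-fold lower (adjusted p = 0.0069). The Kv4.2 gene Kcnd2, the partner pore of both, had a difference of -0.11 and did not pass.

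Kcnj4 read 9.46, 9.50, 9.63 and 9.48 in wild-type and 8.71, 8.72, 9.31 and 9.18 in transgenic striatum. The transgenic arrays fell into a lower and a higher pair, all below the wild-type arrays, with a difference of -0.54 ± 0.13 (SE, adjusted p = 0.030). Kcnh3 read 11.39, 10.78, 11.11 and 11.20 in wild-type and 10.58, 10.23, 10.66 and 10.54 in transgenic striatum, again without overlap (-0.62 ± 0.15, SE, adjusted p = 0.031). Kcnj11 encodes Kir6.2, the pore of the ATP-sensitive channel that couples metabolism to excitability. It read 7.57, 7.48, 7.58 and 7.48 in wild-type and 7.19, 7.13, 7.27 and 7.36 in transgenic striatum, a small difference without overlap (-0.29 ± 0.08, SE, adjusted p = 0.047). Abcc8, which encodes the SUR1 subunit of the same channel, fell too (-0.41, adjusted p = 0.016).

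These striatal calls rest on few arrays. Without transgenic control array 1 or 2 or wild-type control array 4, 2 genes were called, Kcnip2 and Kcnip3. Without wild-type control array 1 or 3, 3 genes were called, those 2 and another gene, a rise in the first case. Leaving out transgenic array 3 lost Kcnj11, transgenic array 4 lost Kcnh3, and wild-type array 2 lost Kcnj11. Median scaling in place of quantile normalization called 0 of the 53 genes and 137 of all features, with adjusted p of 0.14 for Kcnip2 and 0.10 for Kcnip3. No BeadChip, the slide on which several arrays sit, held both genotypes of control striatum or control cortex, so within those arrays slide and genotype cannot be told apart. With a BeadChip block fitted on all 47 arrays, 7 genes fell in striatum, 4 of them among the 5, including Kcnip2 (-0.81, adjusted p = 0.0052) and Kcnip3 (-0.88, adjusted p = 0.0022).

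The RefSeq table of promoters (assembly GRCm38.p6, 250 bases before to 50 after each start) held 56 of the 72 genes. Kcnip2 and Kcnj4 are shown because they fell together in striatum, and Kcnk2 because its genotype difference ran in opposite directions between regions. Capitals mark matches on either strand to the GC box GGGCGG, the CCAAT box CCAAT, the TATA box TATAAA, the E-box CACGTG or the CRE TGACGTCA. No matches overlap, and they adjoin only where the capitals of Kcnj4 run together. Each window lies on the minus strand and is written 5′ to 3′: Kcnip2 at chr19:45816014-45816313, Kcnj4 at chr15:79505192-79505491 and Kcnk2, at the most upstream of its 4 listed starts, at chr1:189402224-189402523.
Kcnip2: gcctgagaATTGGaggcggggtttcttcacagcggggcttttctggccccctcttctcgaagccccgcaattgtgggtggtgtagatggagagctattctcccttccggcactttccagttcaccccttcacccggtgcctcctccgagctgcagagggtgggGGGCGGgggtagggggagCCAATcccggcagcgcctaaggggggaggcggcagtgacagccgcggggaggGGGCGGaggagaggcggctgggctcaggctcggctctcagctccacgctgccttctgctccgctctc
Kcnj4: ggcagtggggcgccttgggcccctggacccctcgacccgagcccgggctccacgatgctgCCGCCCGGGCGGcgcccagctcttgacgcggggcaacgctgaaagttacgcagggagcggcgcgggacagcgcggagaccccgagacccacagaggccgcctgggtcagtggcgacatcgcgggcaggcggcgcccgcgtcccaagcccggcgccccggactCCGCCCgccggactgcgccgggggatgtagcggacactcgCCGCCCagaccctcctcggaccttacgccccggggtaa
Kcnk2: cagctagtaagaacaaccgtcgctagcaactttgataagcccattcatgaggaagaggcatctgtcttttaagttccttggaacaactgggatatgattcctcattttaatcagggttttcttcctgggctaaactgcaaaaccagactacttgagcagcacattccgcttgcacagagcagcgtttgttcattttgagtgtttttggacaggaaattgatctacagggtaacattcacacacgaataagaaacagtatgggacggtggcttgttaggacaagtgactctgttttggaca
The Kcnip2 window held 2 GC boxes and 2 CCAAT boxes at 67% GC, and the Kcnj4 window 4 GC boxes at 76% GC. The Kcnk2 window, at 43% GC, held none of the 5 motifs. GC boxes were found in 47.5% of the 80 promoters listed for these genes and in 35.7% of all 32851 promoters, CCAAT boxes in 30% and 37.4%, TATA boxes in 5% and 13.6%, E-boxes in 7.5% and 7.15%, and the CRE in 0% and 1.79%.

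In transgenic cortex without 4b, 7 of 51 genes fell and 0 rose, 13.7% against 5.09% of all 12052 features, with 1.58% of features higher and 3.52% lower. The median difference over the 51 genes was -0.16, against 0.01 over all features. The falls included 3 of 8 tandem-pore genes, and 1 gene of each other role. Markers of other cells moved beside them: 4 of 7 tested astrocyte markers fell, with a summed level of 31472 to 38415 in transgenic against 44394 to 49198 in wild-type arrays, and 3 of 5 cortical neuron markers fell, at 25030 to 30942 against 39167 to 43077. None of these markers was within background. Of 5 tested medium spiny neuron markers 1 fell, Ppp1r1b (-1.14). The part of these cells in the channel results was not tested.

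Kcnh3 read 11.16, 11.22, 11.07 and 11.27 in wild-type and 10.53, 10.67, 10.67 and 10.47 in transgenic control cortex. The replicates were tight and far apart (-0.59 ± 0.07, SE, adjusted p = 2e-04). Kcnj16, the partner of the astrocyte channel Kir4.1, read 10.52, 10.54, 10.35 and 10.58 in wild-type and 9.78, 9.95, 9.93 and 9.86 in transgenic cortex, also without overlap (-0.62 ± 0.08, SE, adjusted p = 3e-04). Among tandem-pore genes, the cortical gene Kcnk4 read 9.45, 9.50, 9.41 and 9.27 in wild-type and 8.50, 8.80, 8.96 and 8.52 in transgenic cortex. It was 1.64-fold lower with no overlap (-0.71 ± 0.13, SE, adjusted p = 0.0032). Kcnk13, which encodes THIK-1, a leak channel known from microglia, read 9.95, 9.68, 9.81 and 9.90 in wild-type and 9.07, 9.38, 9.22 and 8.81 in transgenic cortex (-0.72 ± 0.13, SE, adjusted p = 0.004). Of 4 tested microglia markers 0 passed, with a median difference of -0.16.

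Kcnk3 fell by 0.46 on the log2 scale (adjusted p = 0.0044), Kcnab3 by 0.57 (adjusted p = 0.034) and Kcnn1 by 0.40 (adjusted p = 0.038), each without overlap between the groups. Kcnh3, Kcnj16, Kcnk4 and Kcnk13 were called in cortex under each of the 21 alternative settings run. With that BeadChip block, Kcnk3, Kcnab3 and Kcnn1 had adjusted p of 0.14, 0.25 and 0.17, which left 4 called genes in place of 7. Kcnab3 and Kcnn1 kept their calls only without transgenic array 3 or wild-type array 3 among the runs that left out 1 array, and had adjusted p of up to 0.12 in the others.

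Cerebellum without 4b had 2 called genes of 48, 4.17% against 0.689% of all 12049 features (0.332% higher, 0.357% lower). Kcnk2 rose: it read 10.09, 9.85 and 9.996 in the 3 wild-type arrays and 11.09, 10.95, 11.14 and 10.65 in the 4 transgenic arrays, with no overlap. The difference was 0.97 ± 0.13 (SE), or 1.97-fold higher (adjusted p = 0.0042). Kcna6, which encodes Kv1.6, fell: it read 13.00, 12.84 and 12.76 in wild-type and 12.56, 11.91, 12.13 and 12.21 in transgenic arrays (-0.66 ± 0.14, SE, adjusted p = 0.039). On the 1 BeadChip that held both genotypes, with 1 array of each, the difference was 1.29 for Kcnk2 and -0.71 for Kcna6. With the compared groups alone in the fit neither was called (adjusted p of 0.17 for Kcnk2), and 3 of all features were. Kcnk2 was called whichever array was left out, while Kcna6 kept its call only without transgenic control array 1. Without transgenic control array 2 or 4 or wild-type control array 2 or 4, Kcnk2 was the 1 called gene. Of 7 tested markers of cerebellar granule and Purkinje neurons 0 passed, and 1 of 6 oligodendrocyte markers fell. The summed level of choroid plexus markers ranged from 3387 to 34818 in wild-type and from 2598 to 13852 in transgenic control arrays, and its part in these results was not tested.

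**Figure D2:**
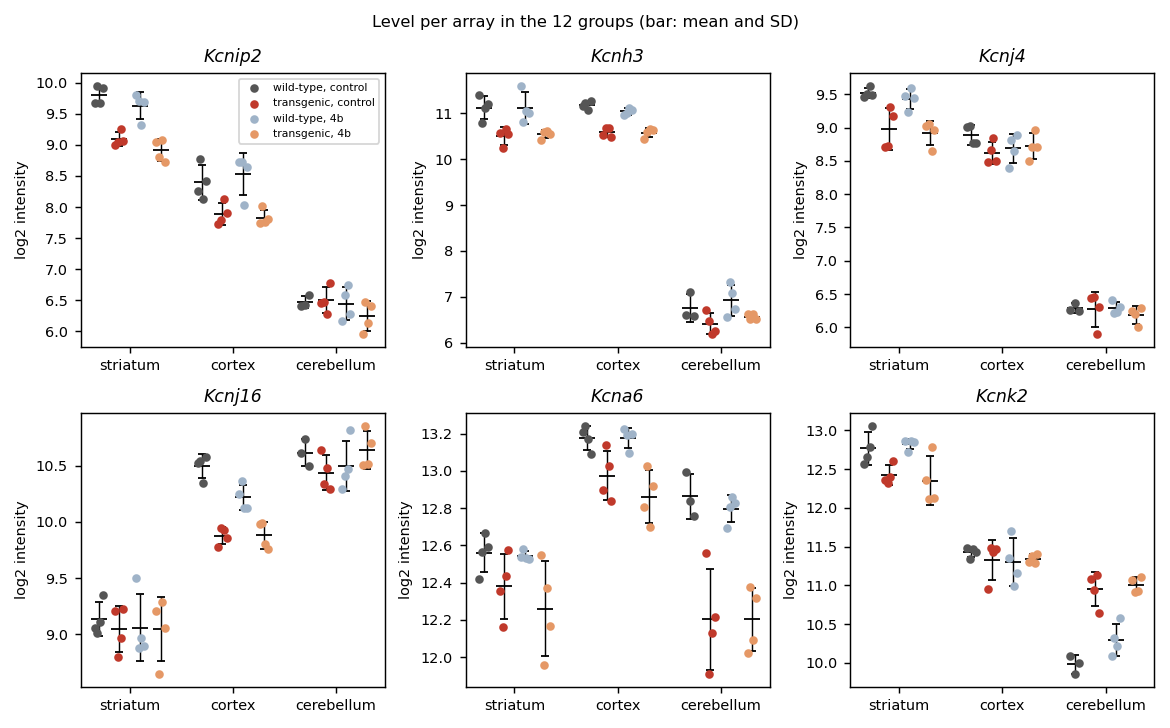
Each point is the log2 intensity of 1 array for 6 potassium channel genes in 3 regions, with 4 arrays per group (3 in wild-type control cerebellum), and the bars give mean and SD. Kcnip2, Kcnh3 and Kcnj4 are lower in transgenic striatum, Kcnj16 in transgenic cortex and Kcna6 in transgenic cerebellum, while Kcnk2 is higher in transgenic cerebellum.

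The same genotype comparison was made in mice given 4b, which share no array with the control mice. In striatum 4 of 53 genes fell and 0 rose (7.55%, against 4.51% of all features, 1.58% higher and 2.93% lower). In cortex 6 of 51 fell and 2 rose (15.7%, against 5.52%, 2.11% higher and 3.41% lower). In cerebellum 3 of 48 fell and 2 rose (10.4%, against 1.44%, 0.423% higher and 1.02% lower). Every gene called without 4b had the same sign under 4b, namely 5 of 5 striatal, 7 of 7 cortical and 2 of 2 cerebellar genes, and 3, 3 and 2 of them were called in both. Over the tested genes the genotype differences without and under 4b correlated at Pearson's r of 0.68 in striatum (n = 53), 0.68 in cortex (n = 51) and 0.81 in cerebellum (n = 48), against 0.70, 0.58 and 0.35 over all features. These are correlations across genes of 1 set of normalized arrays, and genes are not independent replicates.

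In 4b-treated striatum, Kcnip2 read 9.80, 9.71, 9.32 and 9.68 in wild-type and 9.05, 8.81, 9.08 and 8.72 in transgenic arrays, again without overlap (-0.71 ± 0.12, SE, adjusted p = 0.0018). Kcnab1 read 13.77, 14.22, 13.81 and 13.93 in wild-type and 13.35, 13.44, 13.41 and 13.37 in transgenic arrays (-0.54 ± 0.14, SE, adjusted p = 0.034). Without 4b its groups overlapped at 1 transgenic array (-0.48, adjusted p = 0.061). Kcnj4 (-0.51, adjusted p = 0.038) and Kcnh3 (-0.57, adjusted p = 0.044) fell as they did without 4b, while Kcnip3 (-0.57, adjusted p = 0.055) did not pass. In the same comparison 5 of 6 medium spiny neuron markers were lower, by -0.75 to -1.17, with a summed level of 35663 to 46266 in transgenic against 55232 to 63966 in wild-type arrays, and 1 of 7 astrocyte markers was lower, Slc1a2 (-0.37). Their part was not tested. Kcnip2 was the 1 called gene without transgenic 4b array 1, 2 or 4 or wild-type 4b array 4, and 2 genes were called without wild-type 4b array 1 or 3. Under median scaling 0 of the 53 were called, with Kcnip2 at adjusted p = 0.087. On the BeadChip that held both genotypes, with 1 transgenic and 2 wild-type arrays, the 4 differences ran from -0.78 to -0.48.

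In 4b-treated cortex 2 auxiliary genes rose. Kcne1l read 7.95, 7.62, 7.55 and 7.36 in wild-type and 8.81, 8.62, 8.06 and 8.68 in transgenic arrays, a 1.90-fold difference without overlap (0.92 ± 0.16, SE, adjusted p = 0.0024). The gene lies on the X chromosome. The transgenic array at 8.06 and the wild-type arrays at 7.55 and 7.36 came from males, so sex and genotype are partly mixed in this difference. Kcnrg, which encodes a protein known to hold back the assembly of Kv1 channels, read 7.16, 7.23, 7.22 and 7.33 in wild-type and 7.70, 7.61, 7.70 and 7.59 in transgenic arrays (0.42 ± 0.06, SE, adjusted p = 0.00073). The falls were Kcnip2 (-0.70, adjusted p = 0.014), Kcnk12 (-0.55, adjusted p = 0.0062), Kcnk4 (-0.52, adjusted p = 0.025), Kcnh3 (-0.46, adjusted p = 0.0016), Kcnj16 (-0.34, adjusted p = 0.024) and Kcna6 (-0.32, adjusted p = 0.034). Wild-type 4b array 3 was at 8.04 for Kcnip2, with the other 3 at 8.64 to 8.73. Under 4b, 3 of 7 astrocyte, 2 of 5 cortical neuron and 1 of 5 medium spiny neuron markers fell, and their part was not tested. Kcne1l, Kcnrg, Kcnip2 and Kcnk12 were called under each of the 21 alternatives run, and Kcnh3 under each but the BeadChip block (adjusted p = 0.079). Without transgenic 4b array 4, with the BeadChip as a fixed block, or with the compared groups alone, 5 genes were called. Among the runs that left out 1 array, Kcna6 kept its call only without transgenic array 2 or wild-type array 3. Kcnk4 lost its call without transgenic array 1 or 4 or wild-type array 3 or 4, and Kcnj16 without transgenic array 3 or 4 or wild-type array 1 or 2. Within the 2 BeadChips that held both genotypes, all 8 genes kept their sign, on arrays that also entered the calls.

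In 4b-treated cerebellum Kcnk2 rose again, from 10.09, 10.32, 10.21 and 10.58 in wild-type to 11.08, 10.92, 10.93 and 11.11 in transgenic arrays (0.71 ± 0.12, SE, adjusted p = 0.012). Kcnrg rose from 7.47, 7.44, 7.58 and 7.45 to 8.02, 7.89, 8.02 and 8.18 (0.54 ± 0.11, SE, adjusted p = 0.019). Kcna6 fell (-0.59, adjusted p = 0.030), and so did Kcnip1 (-0.70, adjusted p = 0.030) and Kcnma1, the BK channel of action potential repolarisation (-0.68, adjusted p = 0.029). All 5 genes had groups that did not overlap and kept their sign on the BeadChip with 2 arrays of each genotype. Both traits go largely with the calls, which used these same arrays. Choroid plexus markers summed to 27043 to 36515 in the transgenic and 2616 to 36991 in the wild-type arrays, and their part was not tested. Leaving out single arrays cut the count: 0 genes were called without transgenic 4b array 4 (adjusted p of 0.059 for Kcnk2), 1 without transgenic array 1 or 3 or wild-type array 2 or 4, 2 without wild-type array 3 and 3 without wild-type array 1. With the BeadChip block 8 were called, including these 5. With the mean over both of its probes, Kcnk2 differed by 0.39 (adjusted p = 0.14).

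**Figure D3:**
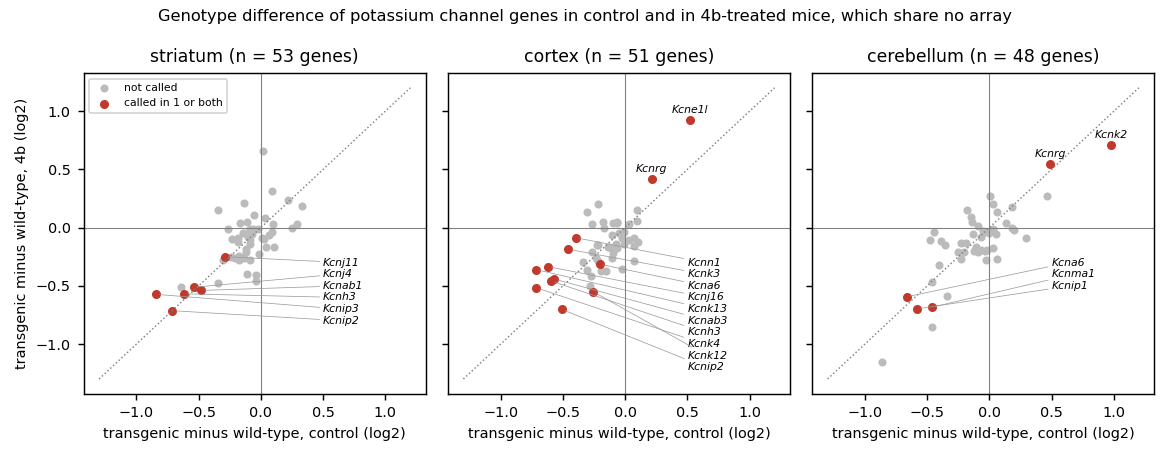
Each point is a potassium channel gene, with its log2 genotype difference (transgenic minus wild-type) in control mice on the horizontal axis and in 4b-treated mice on the vertical axis, by region, and the dotted line marks equal differences. Called genes are red and named, and all of them lie in the lower left or the upper right quadrant.

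Averaging the genotype difference over both treatments, a comparison added after the separate results were known, used all 16 arrays of a region (15 in cerebellum) and narrowed the errors. In striatum 9 of 53 genes fell and 2 rose, 20.8% against 13.7% of all features (6.46% higher, 7.22% lower). In cortex 17 of 51 fell and 2 rose, 37.3% against 13.6% (5.87% higher, 7.7% lower), and in cerebellum 6 of 48 fell and 3 rose, 18.8% against 5.25% (2.32% higher, 2.93% lower). Of the genes tested, 77.4% in striatum, 90.2% in cortex and 72.9% in cerebellum had a negative difference, against 45.8%, 44.8% and 44.6% of all features. Cell type markers moved in the same comparison. In striatum 6 of 6 medium spiny neuron, 2 of 7 astrocyte and 1 of 6 oligodendrocyte markers were lower, and the cortical neuron marker Nrn1 was higher (0.98). In cortex 4 of 5 cortical neuron, 4 of 7 astrocyte and 2 of 5 medium spiny neuron markers were lower, and the choroid plexus marker Sostdc1 was higher (0.63). In cerebellum 3 of 6 oligodendrocyte markers (Mobp, Cldn11 and Mag), the astrocyte marker Gja1 and the medium spiny neuron marker Ppp1r1b were lower. Their part in the channel results was not tested.

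By role, voltage-gated genes gave 2 falls of 20 in striatum (Kcnh3 and Kcnq3, the latter a subunit of the M-current), 7 of 19 in cortex and 2 of 17 in cerebellum. The 7 cortical falls were Kcnh3 (-0.53), Kcnh5 (-0.39), Kcnh1 (-0.35), Kcna2 (-0.33), Kcns1 (-0.28), Kcna6 (-0.26) and Kcna1 (-0.25). In that set Kcna1, Kcna2 and Kcna6 are the axonal Kv1 genes, and Kcnh1, Kcnh3 and Kcnh5 belong to the ether-a-go-go family. In cerebellum Kcna6 (-0.63) and Kcng4 (-0.46) fell, and Kcnc1, which encodes the fast-spiking channel Kv3.1, rose by its brighter probe (0.37, adjusted p = 0.021). Its second probe moved the other way in cerebellum, by -0.19 without and -0.51 under 4b, and with the mean over both probes the difference was 0.01 (adjusted p = 0.97).

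Auxiliary genes gave 3 falls of 11 in striatum, Kcnip2 (-0.71), Kcnip3 (-0.71) and Kcnab1 (-0.51). Cortex had Kcnip2 (-0.61), Kcnab3 (-0.51) and Kcnab1 (-0.19) lower and Kcne1l (0.72) higher beside Kcnrg. Cerebellum had Kcnip4 (-0.66) and Kcnip1 (-0.64) lower. The KChIP genes that fell were thus Kcnip2 and Kcnip3 in striatum, Kcnip2 in cortex, and Kcnip1 and Kcnip4 in cerebellum, where Kcnip2 was not tested. Kcnrg rose in all 3 regions: the striatal difference was 0.23 (adjusted p = 0.026), the cortical 0.31 (adjusted p = 0.00014) and the cerebellar 0.52 (adjusted p = 0.0016). Its levels, between 6.93 and 8.27 on all arrays named here, lay close above the background of 6.75, so their size is not exact, and on 1 of 2 BeadChips with both genotypes its striatal difference was -0.08.

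Inward rectifiers gave 2 falls of 10 in striatum, Kcnj4 (-0.53) and Kcnj11 (-0.27), 1 of 9 in cortex, Kcnj16 (-0.48), and 0 of 9 in cerebellum. Kcnj2, the Kir2.1 partner of Kcnj4 in striatal neurons, had differences of -0.12 without and -0.21 under 4b in striatum and did not pass in any genotype comparison. Tandem-pore genes gave the falls of Kcnk13 in all 3 regions, with differences of -0.58 for striatum (adjusted p = 0.0096), -0.54 for cortex (adjusted p = 0.001) and -1.01 for cerebellum (adjusted p = 0.0097). Its dimmer second probe, with a mean level of 6.74 within background, differed by -0.02 without and -0.13 under 4b in striatum. These differences were -0.27 and -0.42 in cortex, and -0.13 and 0.11 in cerebellum. Kcnk4 (-0.62), Kcnk12 (-0.40) and Kcnk3 (-0.32) fell in cortex, and Kcnk2 fell in striatum (-0.41, adjusted p = 0.0088) and rose in cerebellum (0.84, adjusted p = 0.00015). Among calcium- and sodium-activated genes, Kcnma1 fell in cerebellum (-0.57) and cortex (-0.25), and Kcnn1 fell in cortex (-0.24). Kcnu1, grouped with them but encoding the pH-sensitive channel Slo3 known from sperm, rose in striatum (0.26, adjusted p = 0.020).

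Of the genes called in the averaged comparison, 7 of 11 striatal, 8 of 19 cortical and 6 of 9 cerebellar genes were called under every alternative setting that tested them. They were Kcnab1, Kcnh3, Kcnip2, Kcnip3, Kcnj4, Kcnj11 and Kcnu1 in striatum. In cortex they were Kcne1l, Kcnh3, Kcnip2, Kcnj16, Kcnk4, Kcnk12, Kcnk13 and Kcnrg, and in cerebellum Kcna6, Kcnip1, Kcnk2, Kcnk13, Kcnma1 and Kcnrg. With the BeadChip as a fixed block, 9 cortical genes were called in place of 19. Within each BeadChip that held both genotypes, 10 of 11, 16 of 19 and 9 of 9 called genes kept their sign. The exceptions were Kcnrg in striatum and Kcna1, Kcnma1 and Kcnn1 in cortex. These arrays also entered the fits that called the genes, so the kept signs are no separate support.

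**Figure D4:**
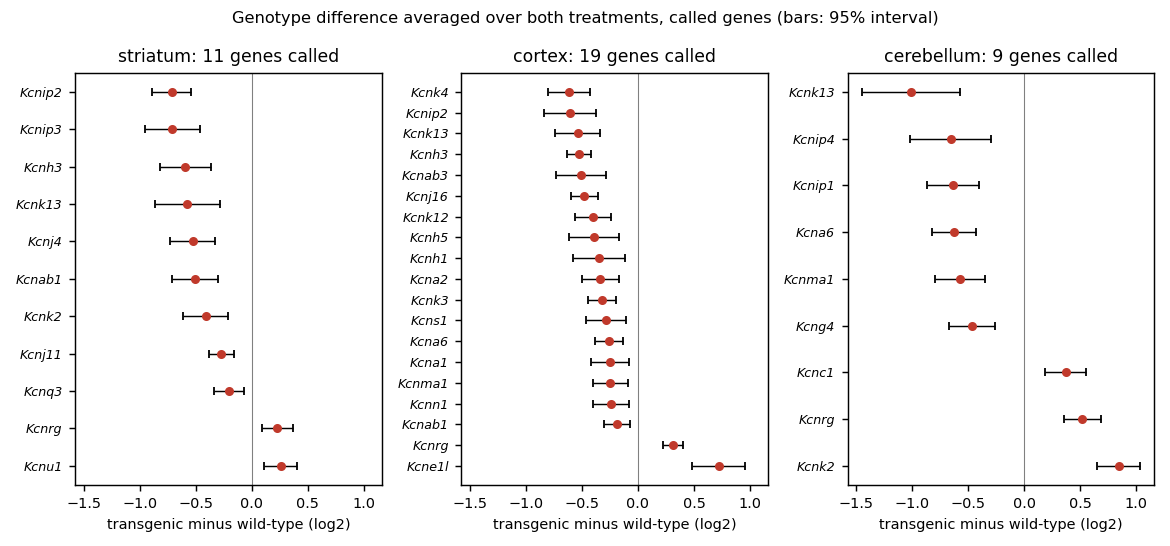
Points give the log2 genotype difference (transgenic minus wild-type) averaged over control and 4b-treated mice for each called potassium channel gene, with 95% intervals, by region. Falls outnumber rises, 9 to 2 in striatum, 17 to 2 in cortex and 6 to 3 in cerebellum.

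Whether the genotype difference itself differs between regions was tested in control mice. Kcnk2 was called, with a striatal difference 1.32 below the cerebellar one (-1.32 ± 0.20, SE, adjusted p = 0.00015, 1 of 46 genes, 2.17% against 0.904% of all features, 0.304% higher and 0.6% lower) and a cortical difference 1.07 below it (-1.07 ± 0.20, SE, adjusted p = 0.0033, 1 of 46 genes, 2.17% against 0.374%, 0.148% higher and 0.226% lower). The gene was thus lower in transgenic than wild-type striatum by 0.35, a difference that did not pass on its own in control mice. It was close to level in cortex (-0.10) and higher in cerebellum by 0.97, and its levels in the regions were closer together in transgenic mice. The striatum-to-cerebellum call held under all 28 alternatives, and the cortex-to-cerebellum call was lost with array weights and with the compared groups alone, to an adjusted p of at most 0.073. Without cerebellum transgenic control array 1, cerebellum wild-type control array 1 or 2, or striatum transgenic control array 3, 2 genes were called in the former. The dimmer second probe of Kcnk2 differed by 0.47 without and 0.07 under 4b in cerebellum, where its mean level of 6.95 was close to background, and by -0.32 and -0.56 in striatum. Kcnip3 (-0.75, adjusted p = 0.080) and Kcna6 (0.48, adjusted p = 0.17) did not pass between striatum and cerebellum. Between striatum and cortex 0 of 50 genes were called by limma, and 0.214% of all 11658 features were (0.0858% higher, 0.129% lower). An unadjusted p under 0.05 was found for 5 of the 50 genes and for 566 of the features.

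The regional levels of wild-type control mice were set beside the genotype differences of 4b-treated mice, which use other arrays. Over 53 genes, a higher level in striatum than in cerebellum went with a more negative genotype difference in striatum (Pearson's r = -0.60, Spearman's rho = -0.48), against r = -0.30 over all 12030 features. Of the 13 genes more than 2-fold higher in striatum than in cerebellum, 12 (92.3%) had a negative striatal difference, with a median of -0.46, and the exception was Kcnu1 (0.18). A negative difference was also found in 77.4% of the 53 genes, in 80% of the 765 features more than 2-fold higher in striatum (median -0.26) and in 45.4% of all features. The 13 genes were Kcnh3, Kcnip2, Kcnj4, Kcnk2, Kcnf1, Kcns2, Kcnj2, Kcna5, Kcnh5, Kcnab1, Kcnk13, Kcns1 and Kcnu1. Among them Kcnh3, Kcnip2, Kcnj4, Kcna5 and Kcnh5 passed the filter in striatum and not in cerebellum. For Kcnh5, with 2 cerebellar arrays within background, the lower limit of the regional fold was 1.94. Of the 12 genes more than 2-fold lower in striatum, 8 were negative, with a median of -0.02, and 42% of the 634 such features were. Levels of these genes in wild-type control striatum ran from 7.02 for Kcnj3, with 1 of 4 arrays within background, to 10.38 for Kcnc4. Kcnk12 (7.23), Kcnk10 (7.27), Kcnk3 (7.33) and Kcnj9 (7.37) also lay close to the background of 6.75, which leaves little room for a fall. The part of this floor in the medians and in r was not tested. Against cortex in place of cerebellum, r was -0.56, against -0.27 over all features. For cortex against striatum r was -0.33, against -0.13 over all features, and all 8 genes more than 2-fold higher in cortex (Kcnc4, Kcnk4, Kcnab3, Kcnk12, Kcnj9, Kcnj3, Kcnj16 and Kcnk3) had a negative cortical difference, with a median of -0.34. Of the 51 tested genes 76.5% were negative there, as were 73.1% of the 401 features more than 2-fold higher in cortex (median -0.15). For cerebellum against striatum r was -0.14, against -0.08 over all features. These are descriptions over genes measured on shared arrays, and the fall of the medium spiny and cortical neuron markers given above moves with them.

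**Figure D5:**
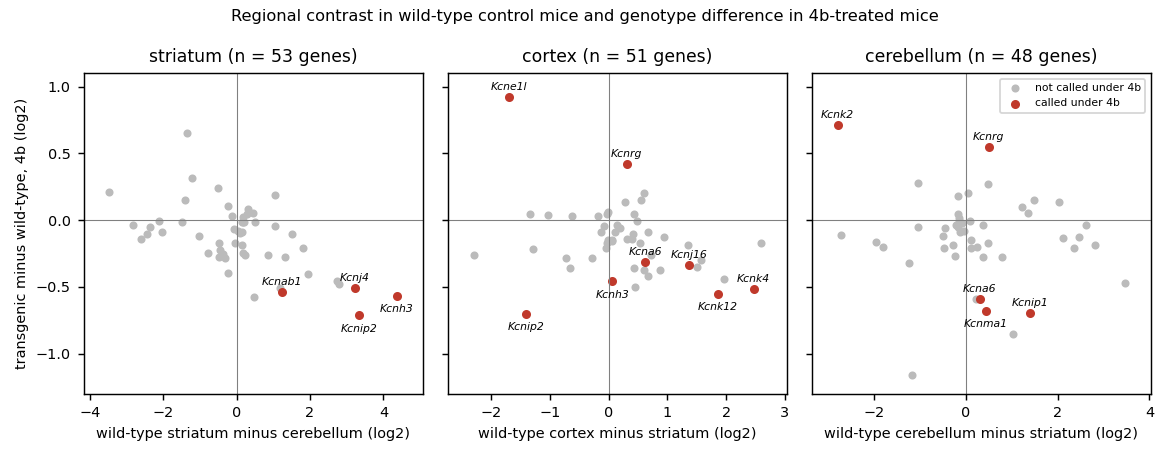
Each point is a potassium channel gene, with its log2 regional contrast in wild-type control mice on the horizontal axis and its log2 genotype difference in 4b-treated mice on the vertical axis. In striatum the genes furthest to the right, Kcnh3, Kcnip2 and Kcnj4, are among the lowest, while Kcnk2 in cerebellum is far to the left and high.

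The last comparison asked whether 4b changed these genes. By limma 0 of 53, 51 and 48 genes were called for 4b in transgenic striatum, cortex and cerebellum, and 0 in wild-type mice of the same regions, with 0% of all features called in each of the 6. At an unadjusted p under 0.05 there were 1, 1 and 2 genes in transgenic and 3, 5 and 4 in wild-type mice, against 305, 257 and 560 and 400, 1098 and 1079 of all features. In transgenic mice these were Kcnf1 in striatum (-0.60, 95% interval -1.02 to -0.18, unadjusted p = 0.0078), Kcnrg in cortex (0.15, unadjusted p = 0.027), and Kcng4 (0.31, unadjusted p = 0.031) and Kcnj14 (-0.25, unadjusted p = 0.031) in cerebellum. In wild-type mice they were Kcnd1 (0.26), Kcnip1 (-0.42) and Kcnj6 (-0.25) in striatum. In wild-type cortex they were Kcne1l (-0.44), Kcnk13 (-0.37), Kcne2 (-0.30), Kcnj16 (-0.28) and Kcns2 (0.26), and in wild-type cerebellum Kcna1 (-0.62), Kcnf1 (-0.44), Kcnk2 (0.32) and Kcng4 (0.32). The 95% interval of a gene's 4b difference in transgenic mice had a median half-width of 0.27 in striatum, 0.24 in cortex and 0.30 in cerebellum. For Kcnip2 in striatum, the transgenic arrays read 9.003 to 9.26 without and 8.72 to 9.08 with 4b, overlapping groups that both lay below every wild-type array. The test of whether the genotype difference differs between 4b and control called 0 genes by limma in each region (0% of all features). Against 243 of 12030, 791 of 12052 and 383 of 12049 features at an unadjusted p under 0.05, there were 2, 4 and 1 genes. These were Kcnab3 (0.64, 95% interval 0.09 to 1.18) and Kcnip1 (0.49) in striatum, Kcne2 (0.44, 95% interval 0.06 to 0.82), Kcnj16 (0.28), Kcnk3 (0.27) and Kcnrg (0.21) in cortex, and Kcnj14 (-0.39) in cerebellum. The mean of Kcnj14 was within background in transgenic 4b (6.74) and wild-type control cerebellum (6.70), so its cerebellar differences of -0.25 and -0.39 lie at the floor. Kcne2 encodes a subunit that is abundant in choroid plexus, and the summed level of choroid plexus markers varied between arrays. In cortex the sum was 1368 to 3697 in wild-type control and 1447 to 23590 in transgenic control arrays. Under 4b it was 1125 to 1749 in wild-type and 1037 to 2666 in transgenic cortex. Elsewhere it ran from 4388 to 35293 in wild-type control striatum. In cerebellum it was 2598 to 13852 in transgenic control and 27043 to 36515 in transgenic 4b arrays. The part of choroid plexus in the level of Kcne2 was not tested.

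Other genes of potassium handling were followed as a list of 38 channel partners, pumps and scaffolds, of which 29 were measured. Without 4b, striatum had 3 falls and 1 rise among 26 tested, against 3.78% of all features called. The falls were Abcc8, Atp1b2 (-0.54, adjusted p = 0.033) and Cntnap1 (-0.45, adjusted p = 0.033). The rise was the cation channel Hcn3 (0.49, adjusted p = 0.0082). Atp1b2 is the astrocyte subunit of the sodium-potassium pump, and Cntnap1 acts beside the nodes of myelinated axons. Cortex had 3 falls of 26, against 5.09% of all features called. They were Abcc8 (-0.45, adjusted p = 0.046), Atp1b2 (-0.37, adjusted p = 0.016) and Slc24a4, a potassium-dependent sodium-calcium exchanger (-0.52, adjusted p = 0.0041). Cerebellum had 0 of 25, where 0.689% of all features were called. Under 4b the scaffolds Dlg2 (-0.41, adjusted p = 0.044) and Dlg4 (-0.43, adjusted p = 0.021), which cluster Kv1 and Kir2 channels, fell in striatum. Atp1b2 and Slc24a4 fell in 4b-treated cortex. The shares of all features called under 4b were 4.51% in striatum and 5.52% in cortex. The median difference of the list without 4b was -0.06, -0.09 and -0.04 in striatum, cortex and cerebellum.

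Genes that did not pass between the genotypes in mice of either treatment taken alone included several well-known neuronal channels. Kcna1, an axonal Kv1 gene, differed by -0.24, -0.22 and -0.45 in striatum, cortex and cerebellum without 4b, and Kcna2 by -0.17, -0.31 and -0.23. Kcnc2, a fast Kv3 gene, differed by -0.17, 0.09 and -0.07. Kcnd2 differed by -0.11, -0.07 and -0.34, Kcnip4 by -0.18, -0.22 and -0.46, Kcnk1 by -0.31, -0.14 and 0.03, and Kcnf1 by -0.04, 0.11 and -0.48. Kcnj2 differed by -0.12, -0.10 and -0.12, Kcnn2, an SK channel gene, by -0.11, -0.06 and -0.06, and Kcne2 by 0.29, -0.31 and -0.21. Kcnq3 was tested in striatum (-0.14) and cortex (-0.05). Of 24 genes with several probes, the other probes above background had the same sign as the brightest in 19 of 19 cases where a gene was called without or under 4b.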

How the data were processed

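Total RNA of 47 samples had been hybridised to Illumina bead arrays, and BeadStudio, per the submitters' processing notes (its version: not given in the sources used here), produced the values. The deposited tables held 1 intensity per probe and array, and the authors' deposited log2 values, which differed from quantile-normalized log2 of those intensities by at most 0.0115. From the intensities, background was corrected by normexp with an offset of 50, log2 was taken and arrays were quantile-normalized (R 4.3.3, limma 3.58.1, Python 3.11.15, matplotlib 3.10.9). Another 1 column matched no sample and was not used. Each gene kept its brightest probe over all arrays (24613 probes, 19596 features). Features above the 40th percentile of mean level in a region were tested with lmFit and eBayes, on the arrays of that region for genotype and 4b, and on all 47 arrays across regions, with Benjamini-Hochberg adjustment at 0.05. Across regions, a feature had to pass this filter in either region for levels, and in both regions for genotype differences. Fits were tested on simulated data. Named in a comparison were up to 12 called rises and 12 falls with the largest differences, or, with under 5 calls, the 5 genes of smallest p, with well-known neuronal channels whatever their values. In the genotype averages every called gene was followed through the alternatives. The genes, lists and comparisons were chosen with earlier results of these data known, and the genotype averages and treatment interactions were added after seeing the data. The number of arrays limits the precision. Same-numbered samples of a region did not deviate together (r from -0.31 to 0.29, 0 of 18 group pairs with every r over 0.1), so numbers were not taken as pairs. Symbols come from the arrays' annotation, and 26 of 98 Kcn genes in RefSeq were not analysed here.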

Additional observations from a re-analysis of the deposited data

Results flagged for a closer look

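Kcnip2 in cortex of 4b-treated wild-type mice had 1 array far from the others. Replicate 3 read 8.04 against 8.64 to 8.73 in the other 3, a gap of 0.867 of the group's range. Of 60 such group tests this was the 1 past its limit, where chance gives about 1 in 20. Without that array the genotype difference in 4b-treated cortex was still called (adjusted p = 0.0018).

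The genotype difference of Kcnk2 in control mice differed between regions. Striatum minus cerebellum came to -1.32 and cortex minus cerebellum to -1.07 on the log2 scale, both called by the test of the difference itself (limma, adjusted p = 0.00015 and 0.0033).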

How the results depend on the processing

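Genotype calls without 4b numbered 5 in striatum, 7 in cortex and 2 in cerebellum, with 2 to 5, 5 to 7 and 1 to 3 when 1 array was left out. Under 4b they numbered 4, 8 and 5, with 1 to 4, 5 to 10 and 0 to 4. Median scaling, which moved the median of all features by at most 0.0838, gave 0 and 1 in striatum and cerebellum without 4b, 0 and 3 in striatum and cerebellum under 4b, and 7 of 11 in the striatal average. With the compared groups alone the counts were 3 in striatum and 0 in cerebellum without 4b, 5 in cortex and 8 in cerebellum under 4b, and 0 for the difference between cortex and cerebellum. The BeadChip as a fixed block gave 4 in cortex without 4b, 5 in cortex and 8 in cerebellum under 4b, and 9 in the cortical average. Array weights gave 7 in striatum and 9 in cerebellum under 4b and 0 for the difference between cortex and cerebellum. The stricter filter gave 7 in striatum under 4b, and the mean over a gene's probes gave 1 in cerebellum without 4b. The difference between striatum and cerebellum had 1 to 2 calls when 1 array was left out. The cause of these shifts was not tested.

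With the replicate number as a block, 1 gene was called in cerebellum without 4b in place of 2, and no other count moved by over 1.5 times. One named result changed sign, Kcnd2 for 4b in transgenic striatum, which was 0.028 with the BeadChip as a fixed block and -0.22 otherwise, and it passed in neither. Of 143 called results, each 1 named gene in 1 comparison, 46 lost their call in at least 1 run, 31 of them in a run that left out 1 array and 44 under another alternative, while 5 results that were not called gained a call in at least 1 run. Regional counts stayed within 30 to 40 under every alternative run, and all 4b counts were 0. Low signal limits Kcnrg, Kcne2, Kcnj6, Kcnj11 and Kcnj14, and Kcnk4 outside cortex, which lay close to the background of 6.75.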
